A study of Mus musculus with 12 samples.

Results

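Enzymes that write or erase methyl and acetyl groups on histones were followed across sorted germ cells and somatic cells of the newborn mouse testis, with and without exposure to dexamethasone (dex). The genes were chosen by symbol and not by any measured value: protein-coding genes outside the Y chromosome whose symbols name lysine methyltransferases (Kmt2 and Kmt5, Setd, Ehmt, Suv39h and the Polycomb repressive complex 2, PRC2, genes Ezh1, Ezh2, Eed and Suz12), lysine demethylases (Kdm), arginine methyltransferases (Prmt), acetyltransferases (Kat, Ep300, Crebbp), histone deacetylases (Hdac) and sirtuins (Sirt). The rule found 78 genes among the 54532 in the count table, of which 22046 are protein-coding. Of the 78 enzymes 77 passed the filter on low counts in every comparison, and Prmt8, an arginine methyltransferase, did not, with 0 to 11 counts per library.

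All animals carried the Tg(Pou5f1-EGFP)2Mnn transgene, in which the promoter of Pou5f1 (OCT4) drives green fluorescent protein (GFP) in germ cells, and all were male. Dams received dex, a synthetic agonist of the glucocorticoid receptor (GR), at 10 μg per g, or an equal volume of saline, by intraperitoneal injection at E17.5 and again at E18.5, and their pups received the same dose under the skin on postnatal day 0. Testes were taken on postnatal day 1 and sorted into GFP-positive germ cells, at this age mostly prospermatogonia, and GFP-negative somatic cells, which gave 4 groups of 3 libraries: saline germ, dex germ, saline somatic and dex somatic cells. Per the study each replicate held testes pooled from litters dosed separately, so that a library is a pool of animals and not 1 animal, and the GFP-negative fraction is a mixture of every other cell type of the testis.

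Histone tails are modified by opposing enzymes. Methylation of lysine 4 of histone H3 (H3K4) marks active promoters and enhancers, methylation of H3K9 marks silent chromatin, H3K27 methylation is placed by PRC2 on repressed developmental genes, H3K36 methylation follows transcribed gene bodies, and H4K20 methylation is tied to chromosome condensation and to heterochromatin. Acetyl groups, placed by acetyltransferases and removed by deacetylases and by the NAD-dependent sirtuins, mark open chromatin. Prospermatogonia are at rest in the cell cycle around birth and regain DNA methylation in this window, and several of the enzymes described here, such as Kdm1b and Prmt7, are known from work on germ cells.

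The promoters of 4 enzymes on which the comparison of germ and somatic cells turns are shown first. Kdm1b (chr13:47043249-47043548, plus strand), an H3K4 demethylase, was far higher in germ cells, Sirt2 (chr7:28766502-28766801, plus strand), a mainly cytoplasmic deacetylase, was far higher in somatic cells, and the PRC2 catalytic subunits Ezh1 (chr11:101226414-101226713, minus strand) and Ezh2 (chr6:47594981-47595280, minus strand) differed in opposite directions between the populations. Each window of 300 bases, 250 before and 50 after a transcription start, comes from RefSeq with coordinates on GRCm38.p6 and is written 5′ to 3′. Capitals mark matches on either strand of 4 short motifs: the GC box GGGCGG, the CCAAT box CCAAT, the E-box CACGTG and the glucocorticoid response element half-site AGAACA.
Kdm1b: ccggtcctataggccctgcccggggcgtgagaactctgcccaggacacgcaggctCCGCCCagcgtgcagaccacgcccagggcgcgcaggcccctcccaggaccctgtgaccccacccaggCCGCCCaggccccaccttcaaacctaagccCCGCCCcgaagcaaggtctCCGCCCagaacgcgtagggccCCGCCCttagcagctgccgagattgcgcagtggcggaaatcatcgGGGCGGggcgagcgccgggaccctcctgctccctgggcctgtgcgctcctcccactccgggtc
Ezh1: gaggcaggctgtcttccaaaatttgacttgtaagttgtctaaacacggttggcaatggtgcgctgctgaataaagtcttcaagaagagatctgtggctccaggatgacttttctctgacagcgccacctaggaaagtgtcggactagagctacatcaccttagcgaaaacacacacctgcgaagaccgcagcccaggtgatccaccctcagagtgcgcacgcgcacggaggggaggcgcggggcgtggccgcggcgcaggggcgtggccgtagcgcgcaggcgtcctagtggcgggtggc
Ezh2: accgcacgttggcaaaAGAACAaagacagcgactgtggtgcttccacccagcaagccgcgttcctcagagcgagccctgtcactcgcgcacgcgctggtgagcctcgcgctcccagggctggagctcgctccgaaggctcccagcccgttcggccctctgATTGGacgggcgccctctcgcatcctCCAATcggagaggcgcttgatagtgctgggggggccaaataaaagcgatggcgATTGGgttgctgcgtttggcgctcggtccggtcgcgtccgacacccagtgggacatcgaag
Sirt2: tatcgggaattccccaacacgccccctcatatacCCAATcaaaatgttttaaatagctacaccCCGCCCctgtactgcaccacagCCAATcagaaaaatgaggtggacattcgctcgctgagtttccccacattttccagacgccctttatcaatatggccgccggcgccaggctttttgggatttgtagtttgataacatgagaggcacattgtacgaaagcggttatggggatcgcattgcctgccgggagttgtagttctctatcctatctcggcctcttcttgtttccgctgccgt

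Of these motifs the Kdm1b window held 6 GC boxes and no other. The Ezh1 window held none of the 4 motifs, whereas that of Ezh2 held 3 CCAAT boxes and 1 half-site, and that of Sirt2 held 1 GC box and 2 CCAAT boxes. A promoter was listed for 66 of the 78 enzymes, 89 promoters in all, and 64% of these held a GC box, against 35.7% of all 32851 promoters of the same length. The GC box share was 75% among the 40 promoters (31 genes) of enzymes called higher in germ cells in both treatments. It was 50% among the 26 promoters (17 genes) of enzymes called higher in somatic cells. In the same order the half-site share was 7.5% and 23.1%, the CCAAT box share 42.5% and 38.5%, and the E-box share 10% and 11.5%. A CCAAT box lay in 42.7% of the enzyme promoters against 37.4% of all, an E-box in 10.1% against 7.15%, and a half-site in 14.6% against 19%. The median ratio of observed to expected CpG was 0.809 in the enzyme promoters and 0.384 in all promoters. Alternative promoters of 1 gene can overlap, and these shares are descriptions with no test.

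Library totals lay between 18459692 and 25178477 counts, of which the 78 enzymes took 0.634 to 1.12%, and 3 counts, the most that a count of 0 allows, came to 0.114 to 0.165 CPM (the count relative to a library size adjusted by TMM across the 12 libraries). Such limits cover counting error only. Markers of germ, Sertoli and stromal cells separated the populations, whereas the markers of some other cells went in both directions. The 8 germ cell markers, among them Ddx4 and Dazl, summed to 2613 to 2882 CPM in the 6 germ cell libraries and to 7.77 to 9.01 CPM in the 6 somatic libraries, and the 8 Sertoli cell markers, among them Amh and Sox9, summed to 36.8 to 71.5 CPM in germ cells and 4367 to 5086 CPM in somatic cells. Peritubular and stromal markers summed to 95.2 to 129 CPM in germ cells and 4909 to 9412 CPM in somatic cells, and Leydig and erythroid markers in germ cells were at 2.87 to 6.57% of their somatic level. Endothelial markers in germ cells reached 22.8% of the somatic level in saline and 21.6% in dex, macrophage markers 21.4% and 77.4%, and the 3 lymphocyte markers were higher in germ cells, at 194% and 705% of a low somatic level (4.49 to 9.68 CPM against 0.594 to 3.77 CPM). In saline, germ cells were higher in mean Pecam1 (24.5 against 15.5 CPM), Cd79a (5.80 against 1.98) and Cd3e (0.932 against 0.169). The other endothelial, macrophage and lymphocyte markers were lower there, among them Cdh5 (22.5 against 215), Lyz2 (0.233 against 17.4) and Ptprc (0.259 against 1.46). In dex Mrc1 and Tek were also higher in germ cells, at 11.7 against 5.53 and 4.79 against 3.20 CPM. In every group at most 3 of the 45 markers, from the germ cell, lymphocyte and erythroid lists, were at 0 in all libraries.

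Most of the enzymes were well expressed in both populations. Their median level, in FPKM (fragments scaled by gene length and library size, the unit in which genes of different length are compared here), was 13.8 in saline germ cells, 14.7 in dex germ cells, 9.59 in saline somatic cells and 9.09 in dex somatic cells, against 2.75 to 2.95 FPKM for all tested genes. The highest FPKM in saline germ cells was that of Ehmt2 (G9a, which methylates H3K9) at 98.5 ± 3.09 (SD, n = 3), followed by the acetyltransferase Kat2a (GCN5) at 80.5 ± 4.76, the main asymmetric arginine methyltransferase Prmt1 at 72.7 ± 1.72, the H3K4 demethylase Kdm1a (LSD1) at 64.3 ± 3.52 and the acetyltransferase Kat7 (HBO1) at 56.3 ± 2.06. Ehmt2 and Kat2a were separated by more than their spread, with 95.5, 102 and 98.2 against 79.4, 76.5 and 85.8 FPKM, as were Prmt1 with 72.7, 74.5 and 71.0 and Kdm1a with 62.8, 61.8 and 68.3 FPKM. In saline somatic cells Prmt1 stood first at 77.6 ± 8.15 FPKM, before Ehmt2 at 51.3 ± 0.299, the class I deacetylase Hdac2 at 40.2 ± 1.34, Kdm1a at 29.2 ± 1.08 and Kat2a at 27.4 ± 1.34 FPKM, and the last 2 overlapped in their libraries (29.7, 30.0 and 28.0 FPKM for Kdm1a and 28.9, 27.2 and 26.2 for Kat2a).

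The lowest levels in saline germ cells were those of the class IIb deacetylase Hdac10 at 1.02 ± 0.258 FPKM, the class IIa deacetylase Hdac9 at 0.857 ± 0.106, the mitochondrial sirtuin Sirt5 at 0.855 ± 0.285, the H3K9 demethylase Kdm4d at 0.792 ± 0.204 and Prmt8 at 0.179 ± 0.0288 FPKM. The lowest in saline somatic cells were the H3K9 methyltransferase family gene Setdb2 at 2.03 ± 0.264, Hdac9 at 0.998 ± 0.195, Sirt5 at 0.697 ± 0.261, Kdm4d at 0.189 ± 0.121 and Prmt8 at 0.047 ± 0.0671 FPKM. Hdac9, Sirt5, Kdm4d and Prmt8 were therefore among the lowest in both populations. In saline germ cells 46 enzymes lay above 10 FPKM and 4 under 1 FPKM, and in saline somatic cells 39 and 4 did.

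Germ cells and somatic cells differed in most of these enzymes. In saline, 61 of the 77 tested enzymes passed the edgeR quasi-likelihood test (called, Benjamini-Hochberg adjusted p at or under 0.05 over all genes tested), 36 higher in germ cells and 25 in somatic cells. In dex, 60 passed, 35 higher in germ cells and 25 in somatic cells. Such a share is near that of the transcriptome, since 76.5% of all tested genes were called in saline (39.8% higher in germ cells and 36.7% in somatic cells) and 76.3% in dex (40.5% and 35.7%). The differences ran from a log2 fold change (germ over somatic) of 3.70 for Kdm1b to -2.94 for Hdac10 in saline, and the median over the 77 enzymes was 0.17 in saline and 0.13 in dex, beside 0.07 and 0.12 over all genes. The 2 comparisons share no library. Of the enzymes, 58 were called in the same direction in both, 35 higher in germ cells and 23 in somatic cells, and 0 in opposite directions, and the log2 fold changes of the 77 had a Pearson r of 0.985 across genes, which are not independent replicates.

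Hdac8, Kdm4d and Prmt2 were called in saline alone and Kat2b and Kat5 in dex alone, and 14 enzymes in neither: Ehmt1, Hdac1, Hdac4, Hdac5, Hdac9, Hdac11, Kdm3b, Kmt2d, Kmt5b, Prmt5, Setd2, Setd4, Setd5 and Sirt5. With other scalings of the libraries the median of all genes moved to 0.17 (size factors of DESeq2) or 0.21 (library totals) in saline and to 0.22 or 0.30 in dex, so that a log2 difference of this size depends on the scaling. With those scalings Prmt1 and Prmt6 lost their call in saline, as did Kat2b, Kat5, Kat6b and Prmt1 in dex, and 0 called enzymes turned direction under any of 17 alternatives. In bulk RNA from a sorted mixture, fewer cells of a type and less RNA per cell cannot be told apart.

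**Figure D1:**
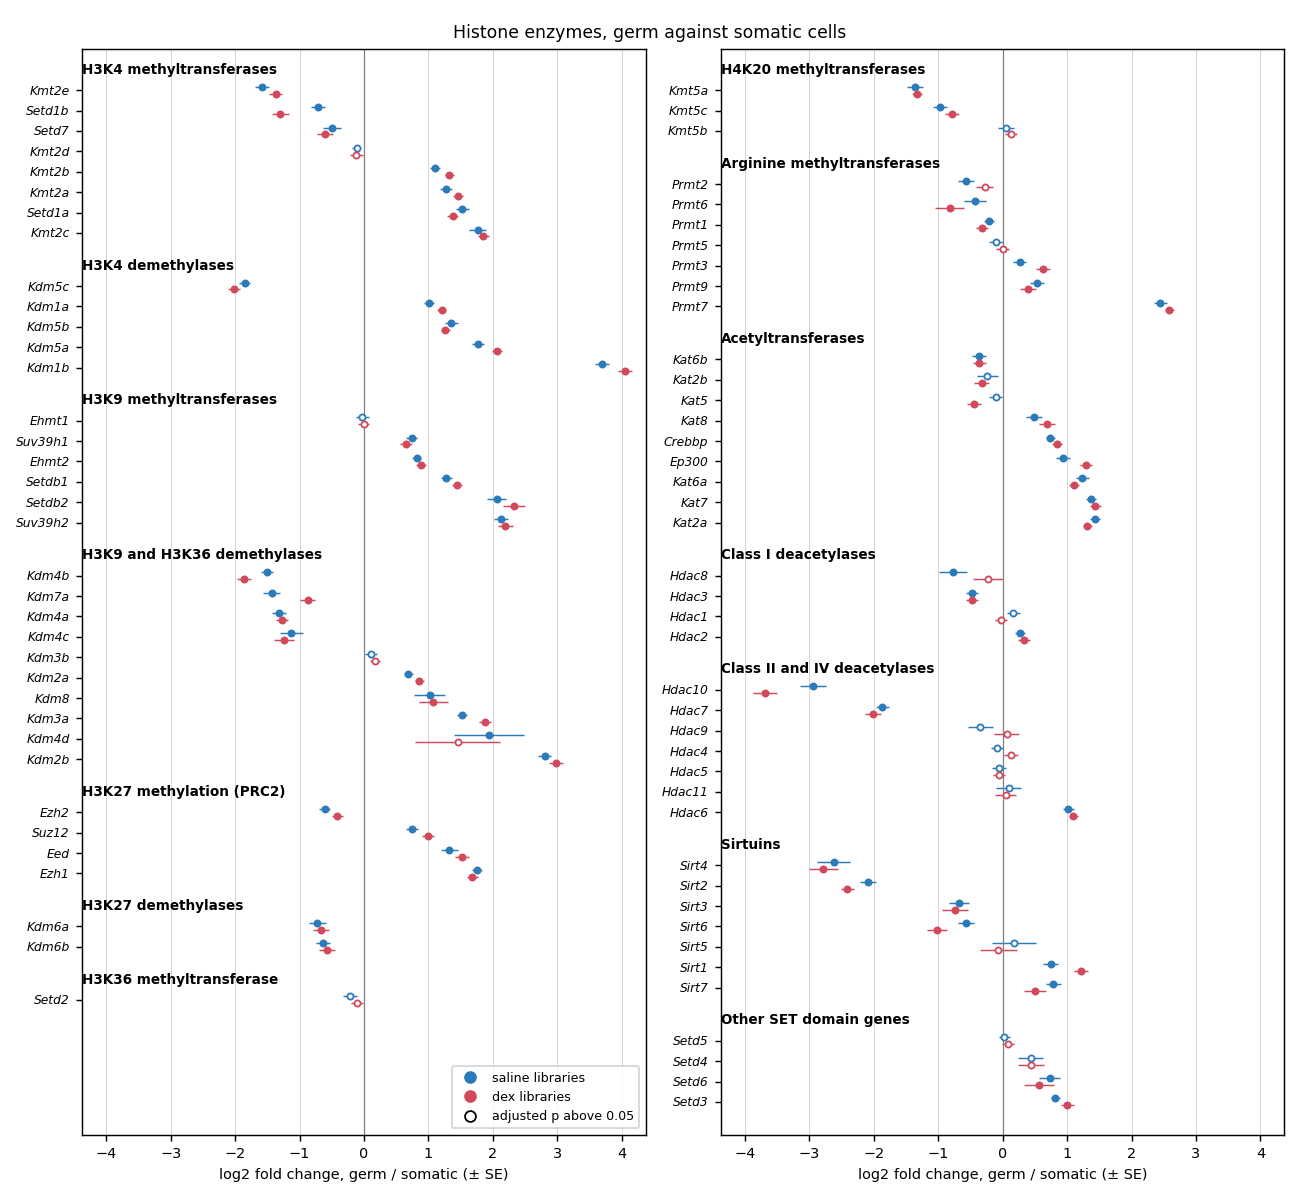
Log2 fold change of germ over somatic cells on the horizontal axis for each tested enzyme (points, with bars of 1 SE to each side), grouped by role along the vertical axis, in saline (blue) and dex (red) libraries, with filled points for enzymes called by edgeR. Kdm1b lies farthest to the germ side at 3.70 in saline and 4.05 in dex, Hdac10 farthest to the somatic side at -2.94 and -3.69, and the H3K9 methyltransferases hold 0 enzymes called higher in somatic cells.

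Among the H3K4 methyltransferases 4 of 8 were called higher in germ cells in both treatments, and 3 of 8 were on the somatic side. Kmt2a and Kmt2b, the MLL proteins that methylate H3K4 at promoters, were higher in germ cells, with log2 fold changes of 1.27 in saline and 1.46 in dex for Kmt2a (adjusted p = 5.76e-08 and 7.3e-09) and 1.10 in saline and 1.33 in dex for Kmt2b (9.57e-08 and 5.28e-09). Setd1a, a catalytic subunit of COMPASS, the complex that places most trimethylation of H3K4, had 177, 179 and 162 CPM in the saline germ cell libraries against 50.4, 66.3 and 55.7 CPM in the saline somatic cell libraries and was 2.88-fold higher in germ cells (log2 fold change 1.52, SE 0.10, adjusted p = 4.51e-08 in saline and 1.38, SE 0.09, adjusted p = 1.8e-08 in dex). Its close relative Setd1b went the other way, with 51.3, 46.5 and 53.5 CPM in the saline germ cell libraries against 75.6, 90.9 and 71.8 CPM in the saline somatic cell libraries (log2 fold change -0.72, SE 0.11, adjusted p = 7.03e-05 in saline and -1.30, SE 0.13, adjusted p = 1.68e-06 in dex). Kmt2e (MLL5), a family member without known methyltransferase activity of its own, was 3.00-fold lower in germ cells in saline (log2 fold change -1.58, SE 0.11, adjusted p = 5.76e-08). The summed FPKM of the 8 genes was 117 to 131 in the 6 germ cell libraries and 68.2 to 76.7 in the 6 somatic libraries, and these ranges did not overlap.

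The H3K4 demethylases held the enzyme with the widest difference between the populations. Kdm1b (LSD2), which demethylates H3K4 at imprinted genes in oocytes, had 208, 215 and 207 CPM in the saline germ cell libraries against 16.7, 16.8 and 12.9 CPM in the saline somatic cell libraries, a 13.0-fold difference (log2 fold change 3.70, SE 0.11, adjusted p = 4.21e-11 in saline and 4.05, SE 0.11, adjusted p = 1.56e-11 in dex). Kdm1a, its relative in the CoREST complex, was 2.02-fold higher in germ cells in saline (log2 fold change 1.01, SE 0.08, adjusted p = 1.62e-07), and Kdm5a, which removes trimethylation of H3K4, was 3.41-fold higher (1.77, SE 0.10, adjusted p = 7.05e-09). X-linked Kdm5c was the exception, with 43.1, 45.1 and 46.8 CPM in the saline germ cell libraries against 146, 170.3 and 149.9 CPM in the saline somatic cell libraries (log2 fold change -1.85, SE 0.09, adjusted p = 1.87e-09 in saline and -2.02, SE 0.09, adjusted p = 9.7e-10 in dex). All 6 germ cell libraries lay below all 6 somatic libraries for Kdm5c. Summed over the 5 genes, the H3K4 demethylases were at 159 to 165 FPKM in germ cells and 64.7 to 72.5 FPKM in somatic cells.

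No H3K9 methyltransferase was called higher in somatic cells: 5 of 6 were called higher in germ cells in both treatments and Ehmt1, the partner of Ehmt2, was not called in either. Suv39h2, which trimethylates H3K9 in heterochromatin and is known for its expression in testis, had 70.9, 78.9 and 73.7 CPM in the saline germ cell libraries against 15.8, 16.4 and 16.96 CPM in the saline somatic cell libraries, 4.35-fold higher in germ cells (log2 fold change 2.12, SE 0.11, adjusted p = 2.92e-09 in saline and 2.19, SE 0.12, adjusted p = 4.11e-09 in dex). X-linked Suv39h1 showed a smaller difference of 0.74 in saline and 0.65 in dex on the log2 scale (adjusted p = 7.13e-06 and 3.08e-05). Setdb1, which silences retroelements together with KRAB zinc finger proteins, was higher in germ cells by 1.28 in saline and 1.45 in dex, Setdb2 by 2.06 in saline and 2.33 in dex and Ehmt2 by 0.82 in saline and 0.88 in dex on the log2 scale, with adjusted p of at most 5.12e-07 among the 3 genes. The summed level was 193 to 217 FPKM in germ cells and 94.2 to 98.6 FPKM in somatic cells.

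The demethylases of H3K9 and H3K36 were split. In saline 5 of 10 were called higher in germ cells against 4 in somatic cells, and in dex 4 against 4. Kdm2b, which acts on H3K36 and recruits a variant Polycomb repressive complex 1 to CpG islands, had 333, 310.2 and 349.9 CPM in the saline germ cell libraries against 43.3, 52.5 and 40.3 CPM in the saline somatic cell libraries, a 6.98-fold difference (log2 fold change 2.80, SE 0.10, adjusted p = 2.32e-10 in saline and 2.98, SE 0.10, adjusted p = 1e-10 in dex). Kdm3a, an H3K9 demethylase needed for spermiogenesis in the adult, was 2.86-fold higher in germ cells in saline and 3.67-fold higher in dex (adjusted p = 4.75e-09 and 1.46e-09). Kdm4a and Kdm4b, demethylases of trimethylated H3K9 and H3K36, lay on the somatic side, Kdm4a at -1.32 in saline and -1.28 in dex and Kdm4b at -1.50 in saline and -1.86 in dex on the log2 scale (all adjusted p at most 3.47e-07). Kdm7a, which acts on H3K9 and H3K27 dimethylation, was also higher in somatic cells, at -1.43 in saline and -0.88 in dex (adjusted p = 6.19e-07 and 1.48e-05).

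Within PRC2 the catalytic subunits differed in opposite directions. Ezh1 had 184, 181 and 205 CPM in the saline germ cell libraries against 53.7, 53.7 and 54.2 CPM in the saline somatic cell libraries, 3.37-fold higher in germ cells (log2 fold change 1.75, SE 0.08, adjusted p = 1.78e-09 in saline and 1.68, SE 0.08, adjusted p = 2.04e-09 in dex). Ezh2, the subunit with the stronger methyltransferase activity that is typical of dividing cells, had 72.6, 69.2 and 67.1 CPM in the saline germ cell libraries against 103, 104 and 99.6 CPM in the saline somatic cell libraries and was 1.53-fold lower in germ cells (log2 fold change -0.61, SE 0.08, adjusted p = 2.51e-05 in saline and -0.42, SE 0.08, adjusted p = 0.000627 in dex). The core subunits Eed and Suz12, which both complexes need, were higher in germ cells, Eed by 1.33 in saline and 1.51 in dex and Suz12 by 0.74 in saline and 0.99 in dex on the log2 scale (all adjusted p at most 1.43e-05). On the FPKM scale the ratio of Ezh1 to Ezh2 was 2.27 to 2.87 across the 6 germ cell libraries and 0.465 to 0.689 across the 6 somatic libraries. Both H3K27 demethylases were higher in somatic cells, X-linked Kdm6a (UTX) by log2 fold changes of -0.72 in saline and -0.67 in dex and Kdm6b (JMJD3) by -0.64 in saline and -0.57 in dex (adjusted p = 0.00022 and 0.000307 for Kdm6a, 0.000128 and 0.00135 for Kdm6b).

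Setd2, the enzyme that trimethylates H3K36, was not called, with 201, 200.2 and 157 CPM in the saline germ cell libraries against 199.8, 231 and 188 CPM in the saline somatic cell libraries (log2 fold change -0.21, 95% interval -0.43 to 0.0022, adjusted p = 0.0963 in saline). With the replicate number as a block, an alternative fit, Setd2 was called, at a log2 fold change of -0.22 (adjusted p = 0.0248). Of the 3 H4K20 methyltransferases 2 were called higher in somatic cells in both treatments and 0 higher in germ cells: Kmt5a (SET8), which places monomethylation of H4K20 in dividing cells, had 64.6, 66.8 and 47.6 CPM in the saline germ cell libraries against 137, 158 and 146 CPM in the saline somatic cell libraries (log2 fold change -1.36, SE 0.12, adjusted p = 6.85e-07 in saline and -1.33, SE 0.08, adjusted p = 1.78e-08 in dex). The summed FPKM of the 3 genes was 24.8 to 30.4 in germ cells and 47.5 to 52.1 in somatic cells. Among the arginine methyltransferases Prmt7, the enzyme of monomethylarginine, had 239, 271 and 286 CPM in the saline germ cell libraries against 50.1, 44.0 and 45.4 CPM in the saline somatic cell libraries, 5.45-fold higher in germ cells (log2 fold change 2.45, SE 0.10, adjusted p = 3.85e-10 in saline and 2.59, SE 0.07, adjusted p = 1.94e-11 in dex). Prmt5, the main symmetric arginine methyltransferase, did not pass the test at -0.10 in saline and 0.0023 in dex (95% intervals -0.32 to 0.12 and -0.19 to 0.20), and Prmt1, at -0.21 in saline and -0.32 in dex, passed in both treatments (adjusted p = 0.0304 and 0.00834) with germ and somatic libraries that overlapped in both. Of the 7 tested arginine methyltransferases 3 were called higher in germ cells in both treatments, and 3 in saline and 2 in dex were called higher in somatic cells.

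Of the 9 acetyltransferases 6 were called higher in germ cells in both treatments, against 1 in somatic cells in saline (Kat6b) and 3 in dex (Kat2b, Kat5 and Kat6b). Kat2a had 278, 268 and 298 CPM in the saline germ cell libraries against 103, 103 and 93.8 CPM in the saline somatic cell libraries, 2.69-fold higher in germ cells (log2 fold change 1.43, SE 0.08, adjusted p = 8.39e-09 in saline and 1.31, SE 0.07, adjusted p = 6.43e-09 in dex), and Kat7 was 2.58-fold higher in saline (log2 fold change 1.37, SE 0.08, adjusted p = 1.12e-08). The coactivators Ep300 and Crebbp, which acetylate H3K27 at enhancers, were higher by 0.93 in saline and 1.29 in dex and by 0.74 in saline and 0.84 in dex on the log2 scale (all adjusted p at most 7.44e-06). Kat5 (TIP60), which acetylates H4 and H2A, had a log2 fold change of -0.11 in saline (adjusted p = 0.313) and -0.45 in dex (adjusted p = 0.00344), and the difference between these values was not past the threshold (adjusted p = 0.322). Summed over the family, acetyltransferase levels were 248.6 to 259.9 FPKM in germ cells and 118 to 129.7 FPKM in somatic cells.

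The deacetylases were more evenly placed. Among class I, which forms the catalytic core of the Sin3, NuRD and CoREST complexes, Hdac2 was higher in germ cells by 0.27 in saline and 0.33 in dex on the log2 scale (adjusted p = 0.00759 and 0.00472), Hdac3, the enzyme of the NCoR complexes, had log2 fold changes of -0.48 in saline and -0.48 in dex, lower in germ cells (adjusted p = 0.00047 and 0.00032), and Hdac1 was not called at 0.17 in saline and -0.02 in dex (adjusted p = 0.13 and 0.835). In classes II and IV, Hdac10, a polyamine deacetylase, had 4.05, 3.89 and 2.44 CPM in the saline germ cell libraries against 24.4, 25.9 and 26.4 CPM in the saline somatic cell libraries and was 7.70-fold lower in germ cells (log2 fold change -2.94, SE 0.21, adjusted p = 6.93e-08 in saline and -3.69, SE 0.18, adjusted p = 2.25e-09 in dex). Hdac7 was 3.64-fold lower in germ cells (log2 fold change -1.87, SE 0.09, adjusted p = 3.52e-09 in saline) and X-linked Hdac6, a tubulin deacetylase, 2.03-fold higher (1.02, SE 0.08, adjusted p = 1.71e-07). The other 4 of this group were not called, with Hdac9 at -0.34 in saline and 0.06 in dex and Hdac11 at 0.09 in saline and 0.04 in dex. The summed FPKM of classes II and IV was 79.4 to 87.2 in germ cells and 70.5 to 78.0 in somatic cells. Hdac6, at 53.6 FPKM in saline germ and 24.3 FPKM in saline somatic cells, was the 1 gene of this group called higher in germ cells.

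Of the 7 sirtuins 4 were called higher in somatic cells in both treatments and 2 in germ cells. Sirt2 had 20.3, 16.3 and 21.4 CPM in the saline germ cell libraries against 85.0, 74.6 and 77.6 CPM in the saline somatic cell libraries, 4.27-fold lower in germ cells (log2 fold change -2.10, SE 0.13, adjusted p = 1.67e-08 in saline and -2.41, SE 0.11, adjusted p = 7.77e-10 in dex). Mitochondrial Sirt4 had 2.67, 1.81 and 3.27 CPM in the saline germ cell libraries against 18.2, 13.0 and 14.6 CPM in the saline somatic cell libraries, 6.14-fold lower (log2 fold change -2.62, SE 0.26, adjusted p = 1.51e-06 in saline), and mitochondrial Sirt3 had log2 fold changes of -0.68 in saline and -0.74 in dex (adjusted p = 0.00148 and 0.00582). Nuclear Sirt1 lay on the germ side at 0.75 in saline and 1.21 in dex (adjusted p = 7.83e-05 and 6.82e-07). Of the 4 remaining SET domain genes, Setd3 to Setd6, 2 were called higher in germ cells in both treatments and 0 on the somatic side. Of the 5 X-linked enzymes, Hdac6 and Suv39h1 lay on the germ side, Kdm5c and Kdm6a were higher in somatic cells in both treatments, and Hdac8 was called higher in somatic cells in saline alone.

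Paralogs with the same activity were compared as FPKM ratios within each library. Of 18 pairs, the 6 germ cell libraries did not overlap the 6 somatic libraries in 14. As 76.5% of all tested genes were called between the populations in saline, and other gene pairs were not compared, this count is not read as particular to these pairs. The ratio of Kdm5c to Kdm5a was 0.218 to 0.332 in germ cells and 3.38 to 4.17 in somatic cells, that of Kdm1a to Kdm1b was 1.59 to 1.94 in germ cells and 9.98 to 14.7 in somatic cells, and that of Setd1a to Setd1b was 5.38 to 12.2 in germ cells and 1.18 to 1.56 in somatic cells. Suv39h1 and Suv39h2 were at near equal levels in germ cells, with a ratio of 0.907 to 1.12, against 2.62 to 3.00 in somatic cells. The ranges overlapped for Kmt2a to Kmt2b (0.52 to 0.595 in germ cells and 0.472 to 0.527 in somatic cells), Kdm6a to Kdm6b (0.114 to 0.22 in germ cells and 0.142 to 0.201 in somatic cells), Ep300 to Crebbp (0.757 to 0.876 in germ cells and 0.464 to 0.816 in somatic cells) and Hdac1 to Hdac2 (0.317 to 0.451 in germ cells and 0.408 to 0.518 in somatic cells). These ratios are descriptions with no test.

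**Figure D2:**
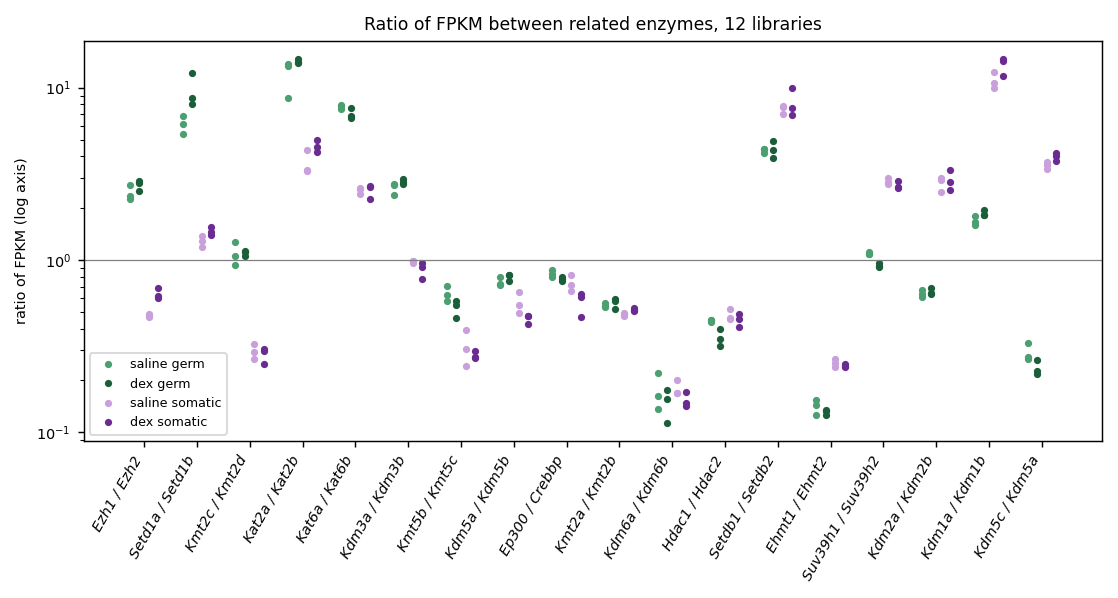
Ratio of FPKM values of 18 paralog pairs (horizontal axis) in each of the 12 libraries, on a log vertical axis and colored by group. For Ezh1 to Ezh2 the germ cell libraries lie at 2.27 to 2.87 and the somatic libraries at 0.465 to 0.689, and for Kdm1a to Kdm1b the order is turned, with 1.59 to 1.94 and 9.98 to 14.7.

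Where genes overlap, reads of one may have been counted for the other, and the sources do not say whether strand was used in counting. Exons of 11 enzymes overlapped a gene with counts above 10% of their own. Dek, on the opposite strand, overlapped 9.19% of the exon bases of Kdm1b and held 178% of its counts, Srpk2 overlapped 9.31% of Kmt2e and held 141%, and Ric8a overlapped 7.0% of Sirt3 and held 278%, so that reads in these stretches cannot be assigned. The overlap was 12.1% for Kat5 (Rnaseh2c, with 93.0% of its counts), 8.09% for Suv39h2 (Dclre1c) and 5.77% for Kdm2b (Rnf34). It was 1.77% for Kdm5a (Ccdc77), 0.834% for Sirt2 (Nfkbib) and 0.429% for Hdac7 (Slc48a1), and all of these lay on the opposite strand. Mafg, on the same strand, overlapped 2.41% of Sirt7 and held 456% of its counts. C130013H08Rik, on the opposite strand, overlapped 23.45% of Prmt6 and held 13.2%. Of the 64-base words in the transcripts of Hdac1, 31.9% also occurred in Gm10093, so that its values are uncertain by the reads the 2 genes share. Of those of Setd1a 51.0% occurred in Gm49388, which overlapped 51.85% of the Setd1a exon bases on the same strand. Gm49388 had 0 counts, and strand cannot separate the 2 genes there, so that the values of Setd1a are uncertain by the reads in this stretch. The share of words that occurred in another gene was 12.6% for Sirt5, 7.80% for Kdm4d, 6.68% for Setdb1 and 5.54% for Kdm2b.

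In germ cells dex moved 1 of the 77 tested enzymes past the test, the COMPASS methyltransferase Setd1b on chromosome 5 (123142193 to 123168629, mm10), beside 1.25% of all 18550 genes tested. Setd1b had 51.3, 46.5 and 53.5 CPM in saline and 24.9, 32.4 and 36.1 CPM in dex, so that the 3 dex libraries lay below the 3 saline libraries, a 1.63-fold decrease (log2 fold change -0.71, SE 0.13, adjusted p = 0.015, edgeR). At an unadjusted p under 0.05 stood 11 enzymes, 3 higher and 8 lower, against 14.7% of all genes, and the dex and saline libraries did not overlap for 14 (5 higher, 9 lower), against 20.1% of all genes. Neither share was above that of the transcriptome. DESeq2 called 2 enzymes, Setd1b and Hdac1 (adjusted p = 0.0437), against 5.26% of the genes for which it gave an adjusted p. The median log2 fold change of the 77 was 0.02 beside -0.0027 over all genes, and the median absolute value was 0.09 beside 0.17. The median level of the enzymes was above that of all tested genes, and no set matched for level was compared.

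The call of Setd1b was lost in 4 of 17 alternatives: both fits on FPKM, the replicate block with a gene length correction, and the fit without saline germ replicate 1 (adjusted p = 0.0918). Its close relative Setd1a had 177, 179 and 162 CPM in saline and 171, 159 and 164 CPM in dex (log2 fold change -0.08, 95% interval -0.22 to 0.07, adjusted p = 0.685). The FPKM ratio of Setd1a to Setd1b was 5.38 to 6.84 in saline germ cells and 8.07 to 12.2 in dex germ cells.

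**Figure D3:**
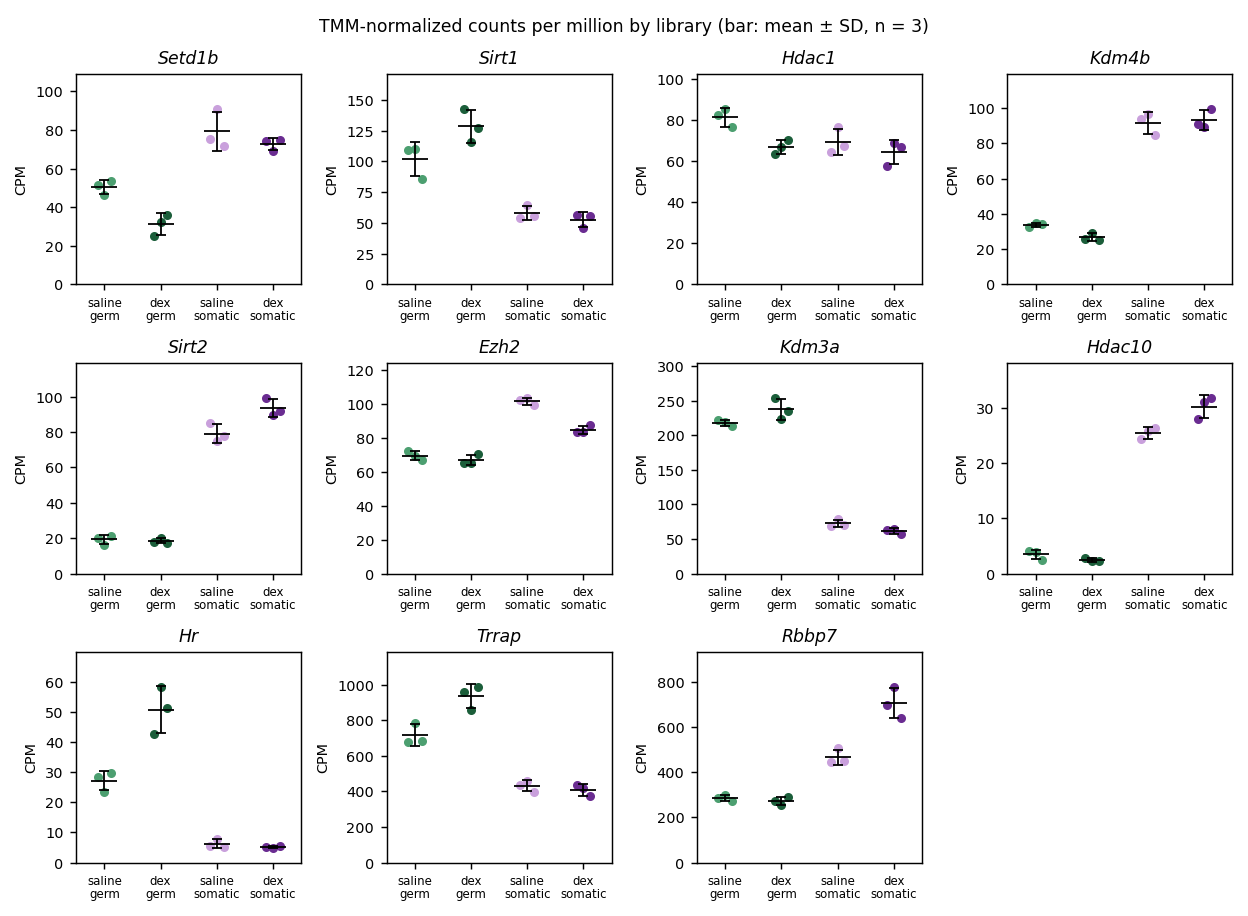
CPM on the vertical axis in each library (points) of the 4 groups, with the mean ± SD of 3 libraries, for 8 enzymes and 3 partner genes named in the dex comparisons. The dex germ cell libraries lie below the saline ones for Setd1b (24.9, 32.4 and 36.1 against 51.3, 46.5 and 53.5 CPM), and the dex somatic libraries lie above the saline ones for Rbbp7 (699.7, 778 and 643 against 446, 506 and 453 CPM).

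Beside Setd1b, the 4 enzymes with the smallest p on the higher side and the next 3 on the lower side are given, and none of these passed the adjusted threshold. Sirt1, a nuclear deacetylase, had 109.6, 109.9 and 86.0 CPM in saline and 143, 116 and 127 CPM in dex (log2 fold change 0.32, SE 0.11, adjusted p = 0.156). Crebbp, an acetyltransferase, had 268, 291 and 262 CPM in saline and 322, 306 and 305 CPM in dex (log2 fold change 0.17, SE 0.07, adjusted p = 0.243). Prmt7 had 239, 271 and 286 CPM in saline and 296, 298 and 297 CPM in dex (log2 fold change 0.15, SE 0.07, adjusted p = 0.351). For these 3 enzymes every dex library lay above every saline library, whereas the groups overlapped for the H3K9 and H3K27 demethylase Kdm7a. Kdm7a had 50.9, 55.5 and 41.9 CPM in saline and 67.4, 54.9 and 59.3 CPM in dex (log2 fold change 0.28, SE 0.12, adjusted p = 0.276).

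On the lower side, the class I deacetylase Hdac1 had 82.2, 85.1 and 76.3 CPM in saline and 63.3, 66.7 and 69.9 CPM in dex (log2 fold change -0.30, SE 0.09, adjusted p = 0.111). The H3K9 and H3K36 demethylase Kdm4b had 32.8, 34.7 and 34.2 CPM in saline and 25.9, 29.4 and 25.4 CPM in dex (log2 fold change -0.34, SE 0.11, adjusted p = 0.156). The H3K9 methyltransferase Suv39h1 had 94.9, 102 and 95.6 CPM in saline and 87.9, 79.2 and 82.1 CPM in dex (log2 fold change -0.24, SE 0.08, adjusted p = 0.171). Every dex library lay below every saline library for these 3 genes. Of the 4 PRC2 genes 0 were called, with Ezh1 at 0.09 (95% interval -0.05 to 0.23), Ezh2 at -0.07 (-0.23 to 0.10), Eed at -0.12 (-0.29 to 0.05) and Suz12 at 0.07 (-0.11 to 0.25) on the log2 scale. Of the 9 acetyltransferases and the 7 sirtuins 0 were called, and Setd1b was the 1 called gene among the 8 H3K4 methyltransferases.

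The summed markers of 4 other cell types did not overlap between saline and dex in the same libraries. The 8 Sertoli cell markers summed to 59.1 to 71.5 CPM in saline germ cells and 36.8 to 48.3 CPM in dex germ cells, with 1 of 8 called lower and 0 at 0 in all libraries of a group, against 4367 to 5086 CPM in the somatic libraries. The 5 Leydig cell markers summed to 8.97 to 11.8 CPM in saline and 4.78 to 8.79 CPM in dex, the 5 erythroid markers to 7.70 to 9.22 and 4.16 to 7.06 CPM (Hba-a2 at 0 in both groups and Hbb-bt in dex), and the 5 macrophage markers, in the other direction, to 9.22 to 13.0 and 14.9 to 17.4 CPM, with 0 called among the tested members of these 3 lists. Within the macrophage list Mrc1 alone had a higher mean in dex, at 11.7 against 6.27 CPM in saline. The means of Lyz2, Csf1r, Adgre1 and Cd68 were lower in dex (Cd68 at 3.76 against 3.81 CPM). Germ cell, stromal, endothelial and lymphocyte markers overlapped between saline and dex and had 0 called. The Sertoli sum in germ cells was 1.33% of that in somatic cells in saline and 0.943% in dex. Setd1b itself was at 75.6, 90.9 and 71.8 CPM in saline somatic cells. The part of other cells in the germ cell values was not tested.

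In somatic cells 0 of the 77 tested enzymes passed edgeR's quasi-likelihood test, beside 3.91% of all 16766 genes. The lowest adjusted p was 0.143, and DESeq2 also called 0, beside 5.94% of genes. At an unadjusted p under 0.05 stood 14 enzymes, 5 higher and 9 lower, against 16.1% of all genes. The dex and saline libraries did not overlap for 22 (7 higher, 15 lower), against 21.5% of all genes, a share above that of all genes whose difference was not tested. The median log2 fold change was -0.04 beside -0.0066 over all genes, and the median absolute value 0.11 beside 0.18. As in germ cells, no set matched for level was compared. By role the medians ran from -0.22 for Setd2 alone to 0.24 for the 7 sirtuins, of which 0 were called.

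On the higher side, Sirt2, a mainly cytoplasmic deacetylase, had 85.0, 74.6 and 77.6 CPM in saline and 99.1, 89.7 and 91.7 CPM in dex (log2 fold change 0.27, SE 0.09, adjusted p = 0.143). The acetyltransferase Kat2a had 103, 103 and 93.8 CPM in saline and 118, 112 and 109.9 CPM in dex (log2 fold change 0.22, SE 0.08, adjusted p = 0.175). Class IIa Hdac7 had 129.9, 116 and 131 CPM in saline and 153, 139.7 and 140.5 CPM in dex (log2 fold change 0.23, SE 0.09, adjusted p = 0.207). The 3 dex libraries lay above the 3 saline libraries for each of these genes and for Hdac10, which had 24.4, 25.9 and 26.4 CPM in saline and 28.0, 31.1 and 31.8 CPM in dex (log2 fold change 0.28, SE 0.12, adjusted p = 0.254).

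On the lower side, the PRC2 catalytic subunit Ezh2 had 103, 104 and 99.6 CPM in saline and 83.4, 83.7 and 87.6 CPM in dex (log2 fold change -0.23, SE 0.08, adjusted p = 0.155). The H3K36 methyltransferase Setd2 had 199.8, 231 and 188 CPM in saline and 171, 181 and 168 CPM in dex (log2 fold change -0.22, SE 0.08, adjusted p = 0.178). The tubulin deacetylase Hdac6 had 138, 146 and 159 CPM in saline and 118, 129 and 126 CPM in dex (log2 fold change -0.21, SE 0.09, adjusted p = 0.228). The groups did not overlap for these 3 enzymes and overlapped for the acetyltransferase Ep300, which had 116, 141 and 107 CPM in saline and 108, 83.9 and 104 CPM in dex (log2 fold change -0.26, SE 0.10, adjusted p = 0.224). Ezh1 was at 0.19 (95% interval -0.0024 to 0.39). The FPKM ratio of Ezh1 to Ezh2 was 0.465 to 0.488 in saline and 0.601 to 0.689 in dex somatic cells, ranges that did not overlap, and was 2.27 to 2.74 and 2.50 to 2.87 in germ cells, ranges that overlapped.

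Summed markers of several cell types shifted with dex in the somatic libraries. The 6 peritubular and stromal markers summed to 4909 to 6510 CPM in saline and 8091 to 9412 CPM in dex, with 4 of 6 called higher. The 5 macrophage markers summed to 38.4 to 66.8 CPM in saline and 17.9 to 23.4 CPM in dex, with 3 of 5 called lower, and the 3 lymphocyte markers to 3.45 to 3.77 and 0.594 to 1.21 CPM, with 1 of 2 tested called lower and Cd3e at 0 in all dex libraries. The 5 erythroid markers summed to 248 to 389 CPM in saline and 82.4 to 291 CPM in dex (2 of 4 tested called lower, Hba-a2 at 0 in dex), and the 5 Leydig cell markers to 116 to 194 and 83.3 to 168 CPM (1 of 5 called lower). Sertoli markers, at 4881 to 5086 and 4367 to 5076 CPM, had 0 of 8 called. Such sums cannot separate cell number from RNA per cell. The part of these shifts in the values of the enzymes was not tested.

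**Figure D4:**
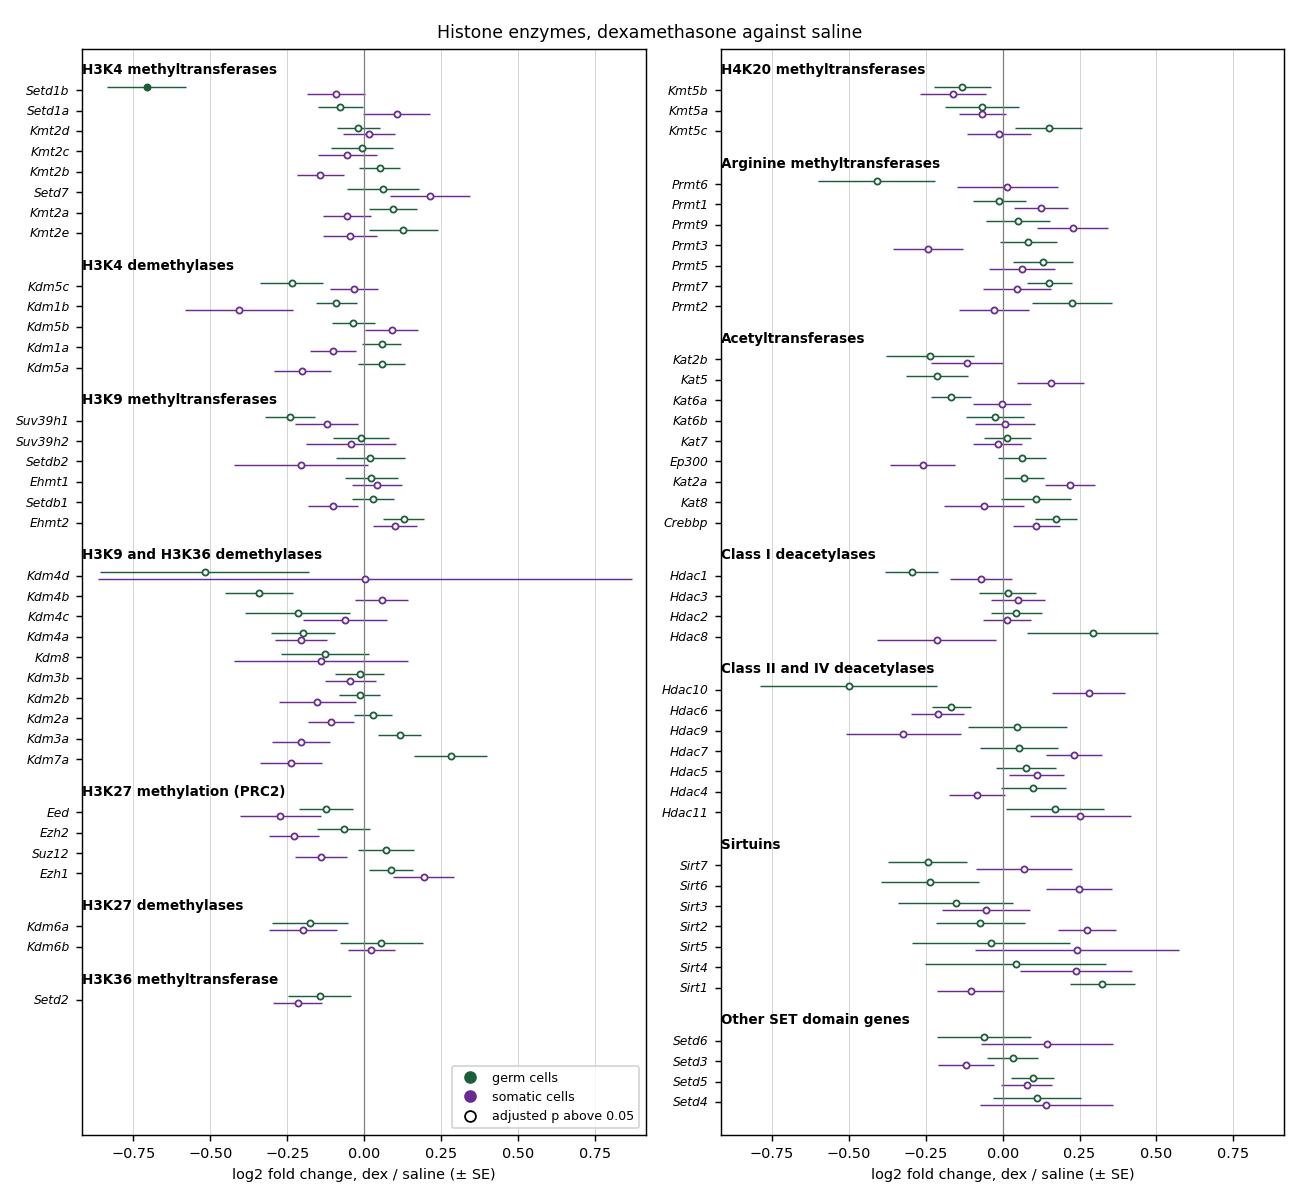
Log2 fold change of dex over saline on the horizontal axis for each tested enzyme (points, with bars of 1 SE to each side), grouped by role along the vertical axis, in germ cells (green) and somatic cells (purple), with filled points for called enzymes. Setd1b in germ cells, at -0.71, is the 1 filled point, and the medians over the 77 enzymes are 0.02 in germ cells and -0.04 in somatic cells.

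Whether dex acted differently on the populations was tested with the dex effect in germ cells minus that in somatic cells over all 12 libraries. By edgeR 0 of the 77 enzymes were called, beside 0.827% of all 20551 genes, with 13 at an unadjusted p under 0.05 (8 with a larger value in germ cells and 5 with a smaller one), against 13.3% of all genes. DESeq2 called 1, Setd1b (adjusted p = 0.033), against 3.65% of genes. The difference for Setd1b was -0.58 (SE 0.18, adjusted p = 0.149 by edgeR), with a dex effect of -0.71 in germ cells and -0.09 in somatic cells (75.6, 90.9 and 71.8 CPM in saline and 74.2, 69.2 and 74.7 CPM in dex). Kdm7a, at 0.28 in germ cells and -0.24 in somatic cells, had a difference of 0.56 (SE 0.18, adjusted p = 0.174), and Kdm3a, at 0.12 and -0.20, one of 0.36 (SE 0.11, adjusted p = 0.174). Hdac10, at -0.50 and 0.28, had the widest named difference, -0.75 (SE 0.26, adjusted p = 0.217), from germ cell levels of 4.05, 3.89 and 2.44 CPM in saline and 2.82, 2.24 and 2.34 CPM in dex.

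The other named differences were 0.47 for Sirt1 (adjusted p = 0.227), 0.37 for the ribosomal arginine methyltransferase Prmt3 (0.294), -0.36 for Kdm4b (0.244) and -0.34 for Kat5 (0.322). Of the 77 enzymes 40 had dex effects of the same sign in germ and somatic cells, and 2 had an unadjusted p under 0.05 in both. Of the 7 sirtuins 1 had a difference above 0, and the median was -0.25 with 0 called.

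Partners of these enzymes, and related enzymes that the symbol rule left out, were counted from a list of 79 genes, of which 78 had a row and 77 were tested. In germ cells 2 were called with dex, 0 of them lower, beside 1.25% of all genes tested. Hr (Hairless), a JmjC-domain H3K9 demethylase and nuclear receptor corepressor, had 28.4, 23.6 and 29.8 CPM in saline and 42.9, 58.3 and 51.4 CPM in dex, a 1.85-fold increase (log2 fold change 0.89, SE 0.13, adjusted p = 0.00428), and every dex library lay above every saline library. Trrap, the scaffold of the TIP60 and GCN5 acetyltransferase complexes, had 675, 786 and 683 CPM in saline and 957, 857 and 985 CPM in dex (log2 fold change 0.38, SE 0.08, adjusted p = 0.031). Hr kept its call in 14 of 17 alternatives and Trrap in 8 of 17, so that the call of Trrap depended on the processing.

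In somatic cells 1 of the 77 tested partners was called, beside 3.91% of all genes. This was Rbbp7, an X-linked histone chaperone that is a subunit of PRC2 and of the NuRD and Sin3 deacetylase complexes. Rbbp7 had 446, 506 and 453 CPM in saline and 699.7, 778 and 643 CPM in dex, a 1.55-fold increase (log2 fold change 0.63, SE 0.08, adjusted p = 0.000343), with dex libraries above all saline libraries, and it kept the call in 17 of 17 alternatives. In germ cells it had 287, 298 and 272 CPM in saline and 272, 253 and 289 CPM in dex (log2 fold change -0.09, 95% interval -0.23 to 0.05, adjusted p = 0.637). The dex effects differed between populations for Rbbp7 (germ minus somatic -0.68, SE 0.12, adjusted p = 0.0123) and for Hr (1.15, SE 0.25, adjusted p = 0.0392), and these calls held in 23 and 8 of 23 alternatives. The difference for Trrap did not pass (0.45, adjusted p = 0.109), and 0.827% of all genes passed. In somatic cells Hr was at 5.61, 7.88 and 5.15 CPM in saline and 5.16, 4.85 and 5.59 CPM in dex (log2 fold change -0.22, adjusted p = 0.755). Between the populations in saline, 40 of the 77 partners were called higher in germ cells against 23 in somatic cells, and in dex 42 against 23. Of all tested genes 39.8% and 36.7% were called so in saline, and 40.5% and 35.7% in dex. Deacetylase complex subunits were the partner list with a majority on the somatic side, 10 of 18 in both treatments, and COMPASS subunits had 5 of 8 tested called higher in germ cells in saline, 6 of 8 in dex and 0 higher in somatic cells.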

How the data were processed

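RNA was sequenced as paired ends from 12 libraries of sorted testis cells, 4 groups of 3, whose groups and replicate numbers came from the labels. The authors selected mRNA on poly-dT beads and, per the submitters' processing notes, used HISAT2 2.0.5, featureCounts 1.5.0-p3 and DESeq2 1.20.0 with the mouse build mm10. The annotation release and the use of strand in counting are not given in the sources used here. The deposited counts are raw reads per gene with no normalization, and the deposited FPKM values are those counts divided by gene length and library size by the authors. The deposited tables of the authors' own comparisons (fold changes and p-values) were not used.

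Counts were fitted in R 4.3.3 with the quasi-likelihood test of edgeR 4.0.16 (TMM, filterByExpr at a minimum count of 10), on the 6 libraries of each comparison, or on all 12 for the difference between dex effects. Benjamini-Hochberg adjustment ran over all genes tested, with calls at an adjusted p of 0.05 or less. SE is the size of the log2 fold change over the square root of F, and 95% intervals are 1.96 SE to each side. With so few libraries this normal quantile makes the intervals narrower than the test implies. CPM used TMM over 12 libraries. Levels of different genes were compared in FPKM. The fits were tested on simulated data, where a fold of 2 was recovered in 74.2% of changed genes for dex in germ cells, 68.5% for dex in somatic cells and 63.4% for the difference. A fold of 1.5 was recovered in 47.8%, 37.7% and 16.7%. The changed genes were drawn from all genes above a low level and not from the enzymes, and folds under 1.5 were not simulated. Among the enzymes 0 had a dex effect over 2-fold. Effects of the size seen could be missed, at a rate that was not measured for these enzymes.

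Alternatives were DESeq2 1.42.0, its size factors or library totals in edgeR, limma 3.58.1 on log2(FPKM + 0.1) and log2(FPKM + 1), no filter, at least 10 counts in every library, a replicate block, a gene length correction, both together, and leaving out each library. Deviations from the group means of same-numbered germ and somatic libraries in saline had correlations of 0.115, 0.187 and 0.156, all above 0.1. Dex and saline germ cell libraries numbered 1, which come from different animals, reached 0.151. Germ and somatic libraries in dex had -0.0098, -0.048 and 0.0048. Libraries of unlike number were not compared, so that this check cannot show whether the numbers pair the libraries. In each of the other comparisons at least 1 pair was under 0.1. That replicates are separate pools is stated for the study, and p-values measure the spread between such pools. Replicates of a group differed by more than counting noise (chi-square per degree of freedom 6.11 to 20.3), so no library was counted as a duplicate.

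Named genes are, for each dex comparison and the difference, every called enzyme and the 4 with the smallest p in each direction. For germ against somatic cells they are the 6 called enzymes with the largest log2 fold change in each direction at an average log2 CPM of at least 2. Beside these stand 32 enzymes fixed by role and the 5 highest and 5 lowest by FPKM in each saline group. Partner genes are named where called with dex. The enzymes, gene lists and tests were chosen with earlier results of these data known. Overlapping genes and shared 64-base words were taken from GENCODE M21, in which 76 of the 78 enzymes had the coordinates of the count table, and promoters from RefSeq on GRCm38.p6.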

Additional observations from a re-analysis of the deposited data

Results flagged for a closer look

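Among the 77 tested related enzymes and partners, edgeR called 2 for a difference in dex effect between the populations over all 12 libraries. The share over all 20551 genes tested was 0.827%. Of the 77 tested histone enzymes 0 were called by edgeR, and DESeq2 called Setd1b (adjusted p = 0.033). For Hr the difference (germ minus somatic) was 1.15 on the log2 scale (SE 0.25, adjusted p = 0.0392, edgeR), with a dex effect of 0.89 in germ cells, higher in 3 of 3 dex libraries than in every saline library. The call of this difference held in 8 of 23 alternatives, with adjusted p from 0.00103 to 0.145. For Rbbp7 the difference was -0.68 on the log2 scale (SE 0.12, adjusted p = 0.0123, edgeR), with a dex effect of 0.63 in somatic cells, higher in 3 of 3 dex libraries than in every saline library. The call held in 23 of 23 alternatives, with adjusted p up to 0.0397. The groups hold 3 libraries each, too few for a test of single outlying libraries.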

How the results depend on the processing

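The count of enzymes called with dex in germ cells, reported as 1, was 2 with DESeq2, 2 without a filter on low counts (Setd1b and Sirt1), 0 with limma on log2(FPKM + 0.1) and on log2(FPKM + 1), 0 with the replicate block and a gene length correction, and 0 to 1 when each library was left out, the call being lost without saline germ replicate 1. In somatic cells the count was 0 in all 17 alternatives. For the difference between populations, reported as 0, it was 1 with DESeq2 and 2 without a filter (Setd1b and Kdm7a), and 0 in each of the 12 fits that left out 1 library. Between the populations 58 to 62 enzymes were called in saline and 57 to 60 in dex when each library was left out. Of the 61 enzymes called in saline 55 kept their call in all 17 alternatives, and of the 60 called in dex 53 did. The calls lost in some alternative were those of Hdac2, Kat6b, Prmt1, Prmt3, Prmt6 and Setd7 in saline and of Kat2b, Kat5, Kat6b, Prmt1, Prmt9, Setd6 and Sirt7 in dex.

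The median over the enzymes, germ over somatic, moved with the scaling, as did that of all genes. In saline, reported as 0.17, it was 0.26 with DESeq2 size factors, 0.30 with library totals, 0.26 with DESeq2 and 0.26 on log2(FPKM + 0.1). In dex, reported as 0.13, it was 0.23 with DESeq2 size factors, 0.32 with library totals, 0.23 with DESeq2, 0.23 on log2(FPKM + 0.1), 0.20 on log2(FPKM + 1), 0.23 without a filter, 0.20 with at least 10 counts in every library, and 0.14 to 0.21 when each library was left out. The median of the difference between the dex effects, reported as 0.06, was -0.022 with the length correction, -0.018 with block and length correction, and -0.0066 to 0.086 when each library was left out. The causes of these moves, other than the scaling itself, were not tested.

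The check given with the methods cannot show whether the replicate numbers pair the saline germ and somatic libraries. With the replicate block 62 enzymes were called in saline (61 without it), the added call being Setd2, and the block changed no other call between populations in saline. In the other comparisons the block gave 1 call with dex in germ cells, 0 in somatic cells, 60 between populations in dex and 0 for the difference.

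Of the values given for single genes, those that turned sign were all uncalled and near 0 as reported. In saline, Kat5 (reported -0.11) was 0.024 with library totals, 0.012 on log2(FPKM + 0.1), 0.012 on log2(FPKM + 1), 0.20 with the length correction, 0.20 with block and length correction. Prmt5 (reported -0.10) was 0.035 with library totals, 0.030 on log2(FPKM + 0.1), 0.028 on log2(FPKM + 1), 0.017 with the length correction, 0.024 with block and length correction. In dex, Hdac1 (reported -0.024) was 0.075 with DESeq2 size factors in edgeR, 0.16 with library totals, 0.075 with DESeq2, 0.088 on log2(FPKM + 0.1), 0.084 on log2(FPKM + 1), 0.051 without a filter, 0.043 with at least 10 counts in every library, 0.13 with the length correction, 0.14 with block and length correction. Hdac9 (reported 0.064) was -0.14 with the length correction, -0.14 with block and length correction. Prmt5 (reported 0.0023) was -0.00077 with the block. Setd2 (reported -0.11) was 0.077 with library totals. Sirt5 (reported -0.069) was 0.029 with DESeq2 size factors in edgeR, 0.11 with library totals, 0.029 with DESeq2, 0.066 on log2(FPKM + 0.1), 0.026 on log2(FPKM + 1), 0.0046 without a filter. When each library was left out, ranges that crossed 0 were, in saline, Hdac11 -0.090 to 0.17 and, in dex, Hdac1 -0.10 to 0.044, Hdac11 -0.064 to 0.16, Hdac9 -0.057 to 0.18, Prmt5 -0.035 to 0.11, Setd2 -0.14 to 0.012, Sirt5 -0.27 to 0.11. Depth limits Prmt8, which was not tested, and the precision of Hdac10, Sirt4, Sirt5 and Kdm4d, which lay at a few CPM in 1 or both populations.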

Other observations

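The genes that work beside the histone enzymes were described above by their dex response. Between the populations they were spread by kind. Other demethylases, a list of 7 that holds Jmjd1c, Jmjd6, Phf2, Phf8, Riox1, Riox2 and Hr, had 5 called higher in germ cells and 2 on the somatic side in both treatments, with median log2 fold changes (germ over somatic) of 1.52 in saline and 1.63 in dex. Of 14 other methyltransferases, such as those of the Nsd and Smyd families, 9 were called higher in germ cells and 2 in somatic cells in saline, and 8 and 2 in dex. Of 6 other acetyltransferases 4 were called higher in germ cells and 1 in somatic cells in both treatments. The 16 subunits of acetyltransferase complexes had 7 called higher in germ cells and 5 in somatic cells in saline, and 8 and 5 in dex. The 7 tested PRC2 subunits other than the core had 3 called in each direction in both treatments. For comparison, 39.8% of all tested genes were called higher in germ cells and 36.7% in somatic cells in saline. These are counts with no test of the lists.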
